A study of Bos taurus with 4 samples.

Results

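The small nuclear RNAs U4, U5, U6 and U12 were followed in small RNA libraries of bovine oocytes at the germinal vesicle (GV) stage. A listed sequence belonged to them when any of its names began with the snRNA class and the Rfam accession of U4 (RF00015), U5 (RF00020), U6 (RF00026) or U12 (RF00007). This gave 565 names of annotated copies out of 38611 names in all: 538 of U6, 15 of U5, 11 of U4 and 1 of U12. They held 2402 of 2468643 distinct sequences. The reads of a sequence with more than 1 name were shared out in equal parts, so a copy can hold a fraction of a read. The groups were 2 libraries of input RNA and 2 libraries of RNA recovered with an antibody against TDRKH. Both came from bovine GV oocytes, with no treatment, strain, genotype or age in the labels. None of the 4 libraries comes from a control antibody, so TDRKH-bound RNA and unspecific carry-over into the IP cannot be told apart. Nothing in the labels says whether the 2 libraries of a group are separate oocyte pools; the p-values therefore reflect the spread of these libraries, which may be technical. Small RNAs give no oocyte marker transcripts to check the label against. The inputs held 1079364 and 1354003 listed reads and the IPs 11138905 and 11060320, a much greater depth. All levels are in reads per 1000000 listed reads (RPM), a share of the library, and in such bulk samples fewer molecules per cell and fewer cells cannot be told apart.

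Spliceosomal snRNAs are short, abundant nuclear RNAs that assemble with proteins into the particles that remove introns. U6 pairs with U4 before splicing starts, and then with the 5′ splice site and with U2 at the catalytic centre. U4 holds U6 inactive and is released during activation, and U5 contacts the exon ends through a conserved loop. U12 takes the place of U2 in the minor spliceosome and recognises the branch point of rare introns. U6 in mammals is known for the very large number of copies and pseudogene-like copies in the genome. TDRKH has a tudor domain through which it contacts PIWI proteins, the carriers of piRNAs, small RNAs that mostly begin with U (written T here).

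Examples of the reads are shown because the families differ in whether they hold sequences found mostly in the inputs or sequences among the leading ones of their copy in the IPs; the line names that group. Here and in later lines the first base is in capitals, except that the capitals in the 31-nt U4 read, which held 4 reads in input 1 alone, mark the ATTTTTG letters of the Sm protein site.
U12, 33 nt, input: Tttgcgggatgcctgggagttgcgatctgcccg
U4 ENSBTAG00000046842.1, 31 nt, input: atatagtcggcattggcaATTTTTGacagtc
U6 ENSBTAG00000042595.1, 20 nt, IP: Ttggacatgacttagaaact
U6 ENSBTAG00000042770.1, 22 nt, IP: Tcacaaagagtcggacacaact
U6 ENSBTAG00000044907.1, 25 nt, IP: Ttttccagtggtcatgtatggatgt
U6 ENSBTAG00000044727.1, 24 nt, both groups with overlapping levels: Tgggaaaagaatctgaaaaagaat
U5 ENSBTAG00000043367.1, 26 nt, IP: Tatacctgtggcggattcattttgat
U5 ENSBTAG00000043367.1, 22 nt, IP: Ttcatgttgatatatggcaaaa
U4 ENSBTAG00000044452.2, 18 nt, IP: Tgcagtggaagtatggaa

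U12 was far lower in the TDRKH IP than in the input, and U5 was higher there under every scaling tried. U12 was at 307 and 275 RPM in the inputs and at 3.32 and 2.35 RPM in the IPs, 102 times less by the means. It fell by 6.66 ± 0.14 (SE) on the log2 scale (adjusted p = 4.69e-09, edgeR's quasi-likelihood test over all families with listed reads as library size), and the change lay between -6.80 and -1.91 over the 6 scalings tried. U5 was at 121 and 124 RPM in the inputs and at 170 and 185 RPM in the IPs, with no overlap between the groups. It rose by 0.53 ± 0.09 on the log2 scale (adjusted p = 0.00075) (0.40 to 5.29 over the scalings), but the call ended without input 1 (adjusted p = 0.0596) and without input 2 (adjusted p = 0.0593).

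The levels of U4 and U6 as whole families depended on the scaling. U4 was at 65.8 and 96.8 RPM in the inputs and at 30.0 and 34.6 RPM in the IPs, a log2 change of -1.35 ± 0.18 (adjusted p = 0.000219) that was -0.19 with TMM factors (adjusted p = 0.278) and turned to 0.86 with DESeq2's size factors and 3.41 with microRNA reads as library size. U6 was at 678 and 754 RPM in the inputs and at 481 and 523 RPM in the IPs, a log2 change of -0.52 ± 0.07 (adjusted p = 0.000323) that turned to 0.64, 1.68 and 4.24 under the same 3 scalings. With reads of at most 32 nt U6 changed by 0.17 (adjusted p = 0.0745). Of the 4629 families tested, 18.6% rose and 58.1% fell with listed reads as library size, and the median log2 change over all of them was -2.46, so U4, U5 and U6 lay above the median family and U12 below it. That median moved by 1.16 with TMM factors, by 2.17 with DESeq2's size factors and by 4.69 with microRNA reads.

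**Figure D1:**
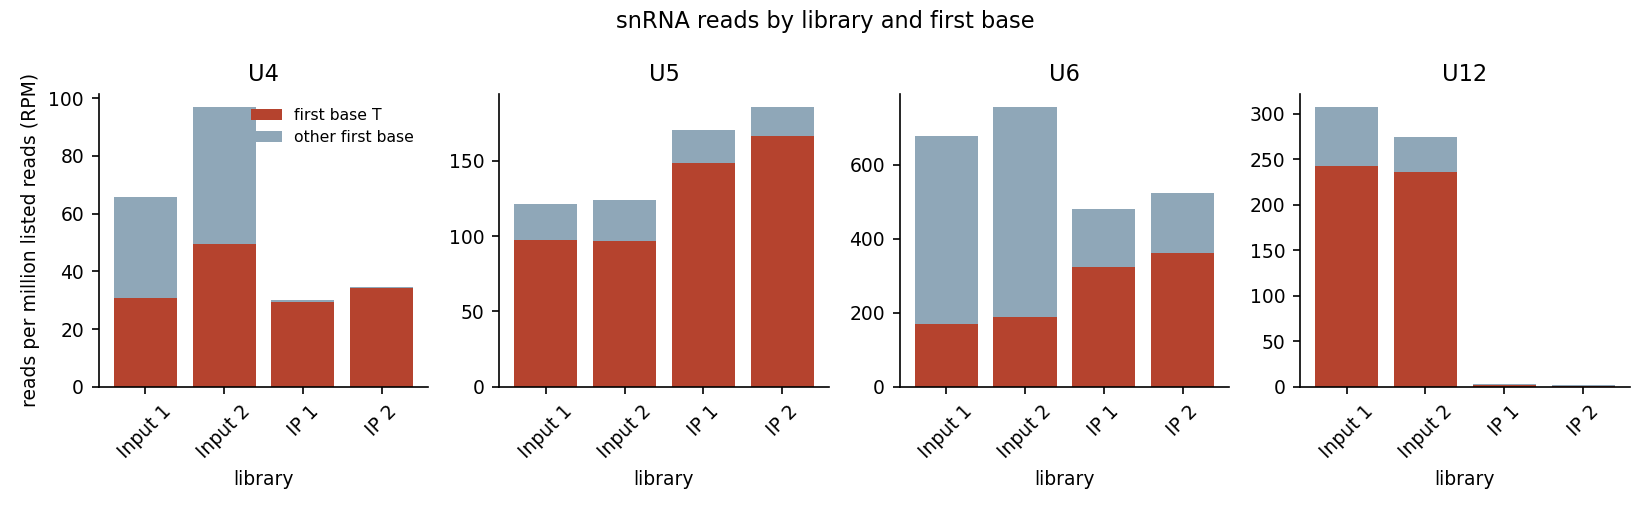
Reads of U4, U5, U6 and U12 in RPM (y axis, linear, from 0, with its own scale in each panel) in the 2 Input and 2 TDRKH IP libraries (x axis), stacked by first base. U12 falls from 307 and 275 RPM to 3.32 and 2.35, U5 is higher in both IPs, and in U4 and U6 the part that begins with T takes most of the IP bars; with listed reads as library size U4 and U6 are lower in the IP, which turns under other scalings.

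The first base set the reads of U4 and U6 apart. In U4, 46.5% and 51.1% of reads began with T in the inputs and 97.6% and 98.7% in the IPs. In U6 the shares were 25.2% and 24.9% against 67.4% and 69.2%. The groups were far apart in both families relative to the spread between libraries. In U5, which was already rich in T in the inputs (80.2% and 77.9%), the IPs were at 87.2% and 89.8%. U12 went the other way, from 79.2% and 86.0% to 51.4% and 34.6%, although the IP shares rest on 37 and 26 reads. For comparison, 82.4% and 82.6% of all listed reads of the inputs and 88.2% and 87.4% of those of the IPs began with T. The exact permutation test of 2 against 2 libraries gave p = 0.33 for each of these shares (two-sided), the smallest it allows.

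In one model over all families, reads that begin with T moved otherwise than the rest in U4, by 5.74 ± 0.32 on the log2 scale (adjusted p = 1.74e-06), and in U6, by 2.69 ± 0.11 (adjusted p = 1.31e-07). U12 had the opposite sign, -2.58 ± 0.47 (adjusted p = 0.0169), and U5 did not pass at 1.05 ± 0.26 (adjusted p = 0.0885; 0.0341 without IP 1). These values compare reads within a library. Of 4615 families tested, 1.89% were called with reads beginning with T relatively higher in the IP and 0.13% with them lower. No call held without either input: U4 came to adjusted p = 0.245 without input 1 and 0.218 without input 2, U6 to 0.195 and 0.156, and U12 to 0.442 and 0.35. The call of U12 was also lost without IP 1 (0.0887) and without IP 2 (0.152).

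Reads of 28 to 36 nt made up 48.9% and 51.5% of U6 reads in the inputs and 1.61% and 1.64% in the IPs. In U4 they fell from 36.6% and 49.6% to 1.497% and 1.04%, and in U5 from 11.5% and 18.5% to 5.85% and 3.17%. In U12, which was long throughout, they went from 86.4% and 92.2% to 51.4% and 61.5%. In all 4 families both IPs lay below both inputs, while over all listed reads this class held 12.1% and 13.4% of the inputs and 10.7% and 10.3% of the IPs. The difference between long reads and reads of 18 to 27 nt was -5.94 ± 0.35 in U4 (adjusted p = 1.72e-16), -1.96 ± 0.32 in U5 (adjusted p = 4.09e-05), -5.94 ± 0.12 in U6 (adjusted p = 3.52e-32) and -2.77 ± 0.42 in U12 (adjusted p = 9.77e-06) on the log2 scale. Of 4715 families tested, 3.01% were called in this direction and 0.594% in the other. U5 and U12 lost the call without input 1 (adjusted p = 0.317 and 0.0589) and without input 2 (0.642 and 0.193), and U4 and U6 kept it without each library in turn.

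The most common length of U6 reads was 35 nt in both inputs, and 26 nt and 20 nt in the IPs. In U12 it was 33 nt in all 4 libraries. In U4 it was 18 nt in all 4 libraries, but the median went from 26 and 27 nt to 18 nt in both IPs. In U5 the median was 25 nt in both inputs and 25 and 24 nt in the IPs. Split by length and first base together, U6 reads of 28 to 36 nt with another first base than T were at 309 and 357 RPM in the inputs and at 3.95 and 4.07 RPM in the IPs. U6 reads of 18 to 22 nt that begin with T were at 83.5 and 94.7 RPM and at 189 and 211 RPM. Those of 23 to 27 nt that begin with T were at 63.9 and 62.0 RPM and at 131 and 147 RPM. With listed reads as library size, the U6 reads that were lower in the IP were thus mainly long with another first base, and those that were higher were short and T-first.

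**Figure D2:**
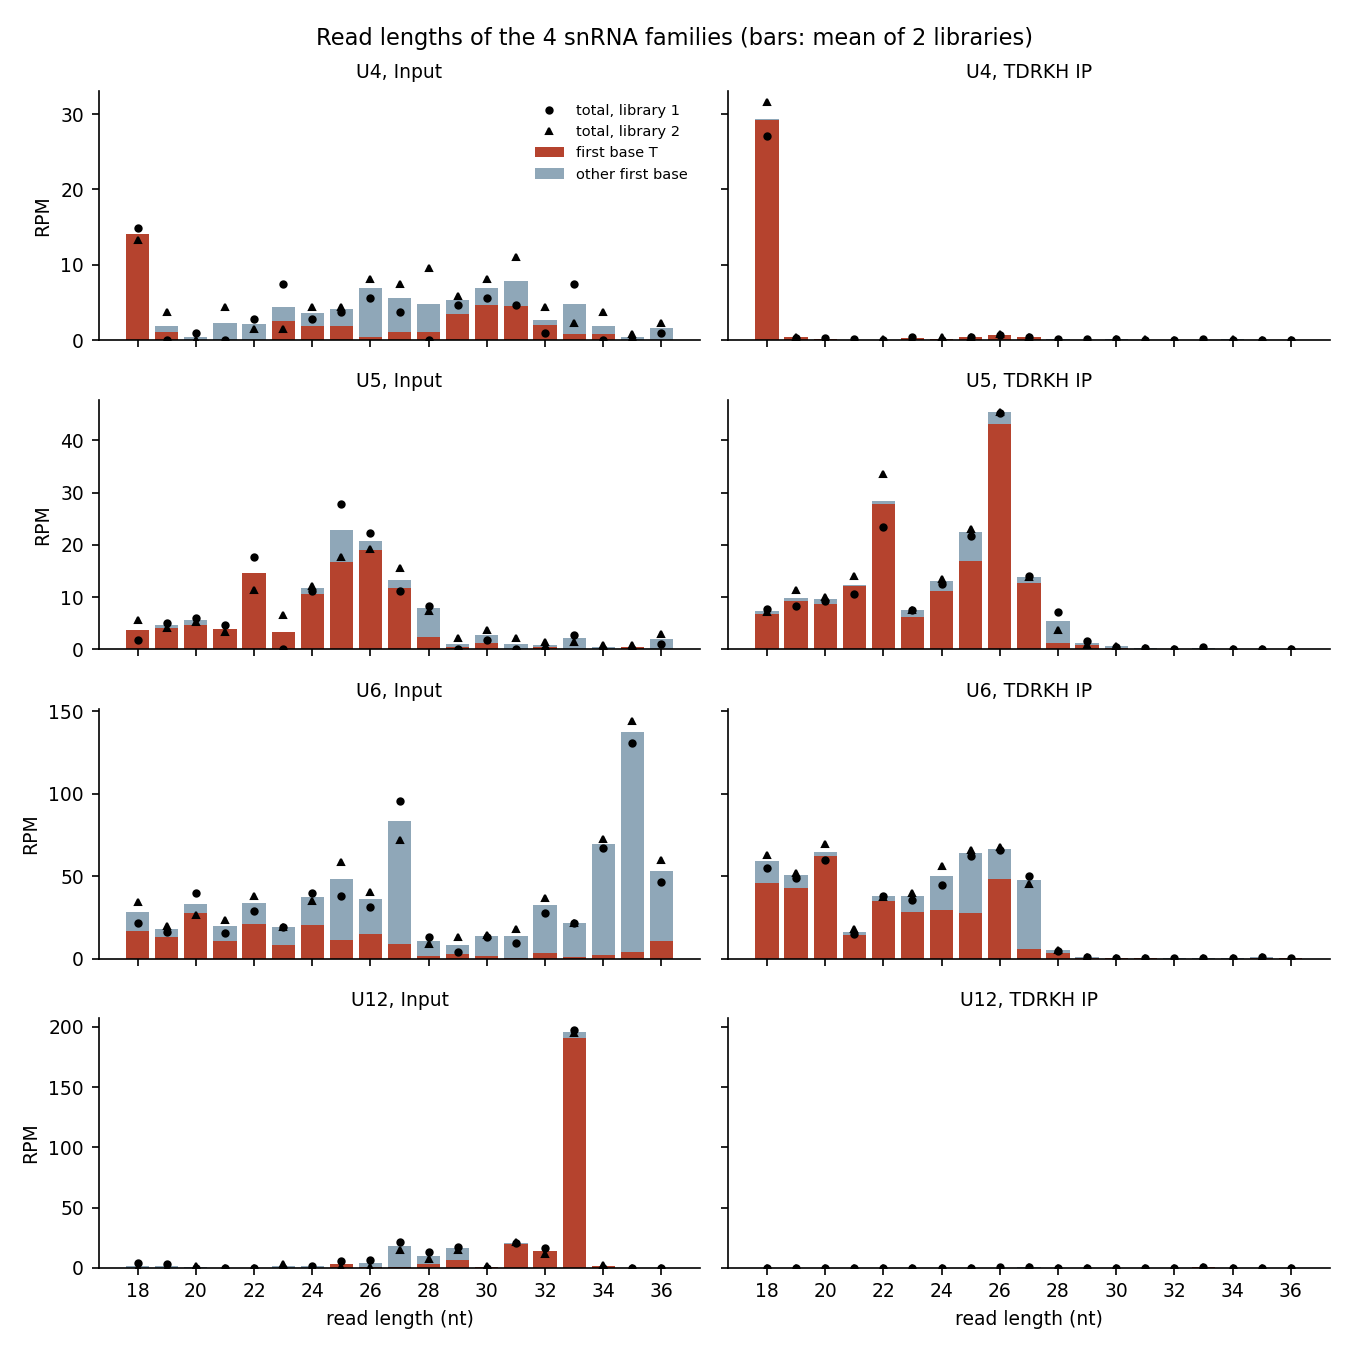
Read length (x axis, 18 to 36 nt) against level in RPM (y axis, linear from 0, shared within a family) for each family in Input and TDRKH IP. Bars are means of 2 libraries stacked by first base, and points are the totals of each library; U6 loses its block at 34 to 36 nt, U4 keeps its 18-nt reads, and the U12 bars of the IP are too low to see beside 33-nt reads of the input.

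U12 has 1 annotated copy, ENSBTAG00000037110.1, so its values are those of 1 locus. Its 33-nt read shown above was at 128 and 143 RPM in the inputs (138 and 194 reads) and at 1.08 and 0.45 RPM in the IPs (12 and 5 reads). It fell by 7.43 ± 0.40 on the log2 scale (adjusted p = 3.6e-16, edgeR over all sequences) and made up 41.7% and 52.2% of U12 reads in the inputs. The other leading U12 reads were shorter from the 5′ side and ended at the same base. Like the 33-nt read, those tested reached 10 RPM only in the inputs, so they passed the filter only where they were high. The 31-nt read that starts 2 nt later fell by 6.75 ± 0.48, and the 27-nt read that starts 6 nt later was at 12.04 and 10.3 RPM and at 0.72 and 0.36 RPM, a log2 change of -4.31 ± 0.41 (adjusted p = 1.62e-10) that became 0.39 with microRNA reads as library size.
U12, starts 2 nt later, 31 nt: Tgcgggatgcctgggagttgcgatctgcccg
U12, starts 6 nt later, 27 nt: Ggatgcctgggagttgcgatctgcccg

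Laid on the chain of exactly overlapping reads that grows from the 33-nt read, 202 and 274 U12 reads of the inputs and 29 and 17 of the IPs could be placed, and the chain reached 34 nt. Of those placed, 73.9% in the inputs and 36.96% in the IPs began at the first base of the 33-nt read, and 8.82% and 32.6% began 6 nt later. The 3′ end was more fixed than the start: 90.5% of placed input reads and 82.6% of placed IP reads ended at the last base of the 33-nt read. The position of this stretch on the mature U12 RNA was not analysed here. The ATTTTTG letters were in 1.51% and 0.269% of U12 reads in the inputs and in 13.5% and 23.1% in the IPs, the latter 5 and 6 reads.

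Reads listed as U6 were split by the number of names of their sequence. This split was chosen after the values were seen and is a description. Sequences listed under 10 or more names were at 353 and 454 RPM in the inputs and at 12.5 and 15.2 RPM in the IPs, where the level was 0.0343 times as high. Sequences with 1 name were at 291 and 270 RPM in the inputs and at 451 and 489 RPM in the IPs, 1.68 times as high. Sequences with many names thus gave 52.1% and 60.2% of U6 reads in the inputs but 2.59% and 2.90% in the IPs. Of their input reads 84.8% and 77.6% were of 28 to 36 nt and 10.2% and 11.9% began with T. Of the input reads with 1 name 5.10% and 7.38% were that long and 44.6% and 47.3% began with T. Within sequences of 1 name, reads that begin with T were at 130 and 128 RPM in the inputs and 304 and 341 RPM in the IPs, while the other reads overlapped between groups at 161 and 143 RPM and 146 and 149 RPM.

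**Figure D3:**
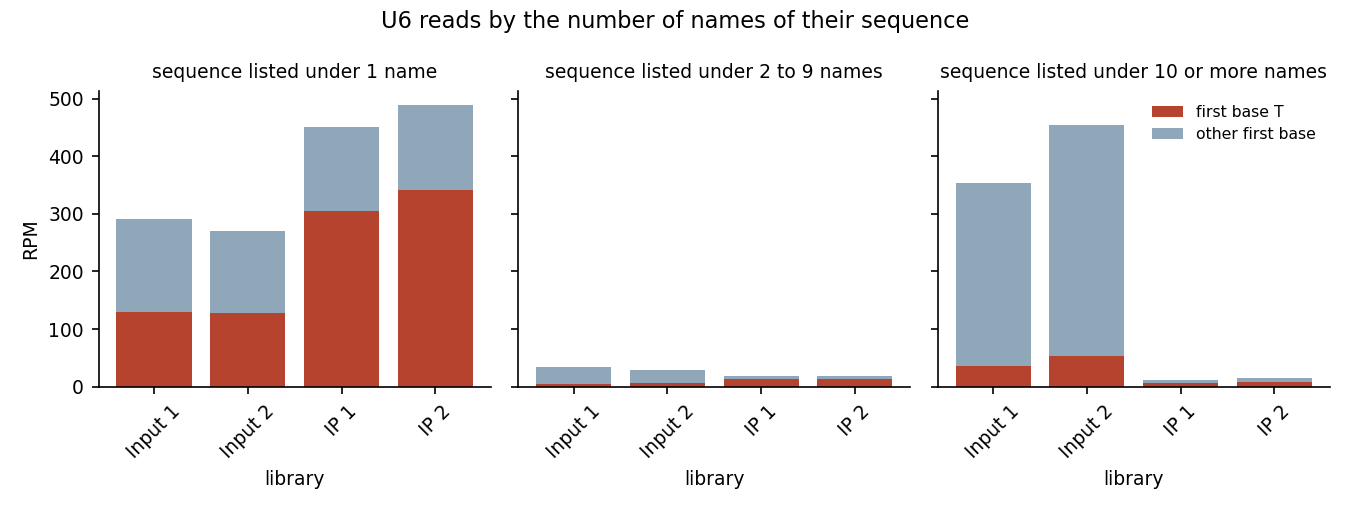
U6 reads in RPM (y axis, linear from 0, shared) in each library (x axis), split by the number of names of the sequence (panels) and stacked by first base. Sequences with 10 or more names fall from 353 and 454 RPM to 12.5 and 15.2, while T-first reads of sequences with 1 name go from 130 and 128 RPM to 304 and 341.

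Single copies gave nearly all U6 reads of the IP. The 4 copies with the most reads held 96.1% and 95.5% of U6 reads in the IPs, and the 4 highest in each input held 39.5% and 33.0%. ENSBTAG00000042770.1 was the most abundant, with 184 and 172 RPM in the inputs and 282 and 270 RPM in the IPs. ENSBTAG00000042595.1 was at 28.3 and 27.3 RPM and at 73.8 and 89.9 RPM, ENSBTAG00000044907.1 at 25.9 and 25.8 RPM and at 57.5 and 72.8 RPM, and ENSBTAG00000044727.1 at 29.6 and 24.0 RPM and at 49.0 and 67.1 RPM. In these 4 copies both IPs were above both inputs, and at least 94.8% of the input reads of each had no other name.

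By the edgeR test over all names these 4 copies rose by 0.64 ± 0.07 (adjusted p = 0.000201), 1.55 ± 0.18, 1.33 ± 0.21 and 1.12 ± 0.25 (adjusted p = 0.0047) in that order, and they were higher under every scaling tried. The 3 copies other than ENSBTAG00000042770.1 lost the call without either input, and ENSBTAG00000042770.1 kept it without each library. With each distinct sequence counted once, ENSBTAG00000042770.1 was at -0.15, ENSBTAG00000044727.1 at -0.10 and ENSBTAG00000042595.1 at 0.62 (adjusted p = 0.136), and none of these 3 passed. The reads of ENSBTAG00000042595.1, ENSBTAG00000044907.1 and ENSBTAG00000044727.1 began with T in 100%, 90.5% and 100% of cases in the inputs and in 99.5%, 93.3% and 97.5% in the IPs. Their median lengths were 20, 24 and 23 nt in the inputs. They were thus short and T-first before the IP, whereas ENSBTAG00000042770.1 began with T in 27.4% of input reads and 47.7% of IP reads.

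The reads of ENSBTAG00000042595.1 had a fixed 5′ start. Of those on the chain of its 20-nt read, all 58 of the inputs and all 1679 of the IPs began at the same base. Its 20-nt read was at 19.5 and 9.60 RPM in the inputs and at 34.7 and 43.2 RPM in the IPs (1.46 ± 0.38, adjusted p = 0.0017). Its 19-nt read, Ttggacatgacttagaaac, was at 1.85 and 5.91 RPM and at 17.8 and 21.0 RPM (2.24 ± 0.51, adjusted p = 0.000544). This change ran from 1.71 without input 1 to 3.37 without input 2, and the call was lost with DESeq2's size factors (adjusted p = 0.111). The input values of both rest on 21 reads or fewer per library. The 19-nt read reached 10 RPM only in the IPs, so it passed the filter only where it was high. The 20-nt call was lost with TMM factors and with DESeq2's size factors (0.77 under each), and without IP 2 (adjusted p = 0.103). ENSBTAG00000044727.1 also kept 1 start: all 46 placed input reads and 96.2% of the placed IP reads began at the first base of its 24-nt read, which itself did not pass (0.90 ± 0.46, adjusted p = 0.086). In ENSBTAG00000044907.1, which had 288 sequences of its own, the most common start held 53.6% of placed input and 56.0% of placed IP reads.

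Near-identical versions were listed under ENSBTAG00000042770.1. The sources used here do not say whether a name allows mismatches, and whether all versions come from that locus was not tested. Its leading 27-nt read, taken as the reference, and another 27-nt read listed under that name differed by T2C and G20T, counted from 1 at the 5′ end and shown in capitals.
ENSBTAG00000042770.1, reference version: gTcacaaagagtcggacacGactgagt
ENSBTAG00000042770.1, other version: gCcacaaagagtcggacacTactgagt
The reference version was at 28.7 and 10.3 RPM in the inputs and at 34.8 and 32.6 RPM in the IPs, which did not pass the test (0.83 ± 0.38, adjusted p = 0.0534). The change ran from 0.23 without input 2 (adjusted p = 0.592) to 1.70 without input 1 (adjusted p = 0.0017), and was 0.14 with TMM factors (0.832), 0.12 with DESeq2's size factors (0.918) and 0.89 with the replicate block (0.0438). The other version was at 51.0 and 34.7 RPM in the inputs and at 7.09 and 4.70 RPM in the IPs, a log2 change of -2.84 ± 0.36 (adjusted p = 5.52e-08) that turned to 1.92 with microRNA reads as library size. The other version reached 10 RPM only in the inputs, so it passed the filter only where it was high. Both versions have the same length and first base and 1 name, and the difference between them was not tested.

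Reads of the reference version that share its 3′ end differed in first base. The 27-nt read begins with G. The 26-nt read, 1 nt shorter, begins with T and was at 1.85 and 3.69 RPM in the inputs and at 12.6 and 16.0 RPM in the IPs (2.31 ± 0.56, adjusted p = 0.000951). The 25-nt read begins with C and was at 18.5 and 19.2 RPM and at 27.9 and 25.7 RPM (0.50 ± 0.35, adjusted p = 0.199, turning to -0.17 with TMM factors). The T-first read was lower than the other 2 in both inputs. The ratio of IP to input was 5.15 for it against 1.73 for the G-first and 1.42 for the C-first read. The difference between the reads was not tested. With the same 3′ end, the A-first 24-nt read had a ratio of 2.61 and the C-first 23-nt read 5.12. G-first reads of 18, 24, 25 and 26 nt with the start of the 27-nt read were at 1.59, 3.42, 4.15 and 2.49. Each of these rests on at most 6 input reads per library. A high ratio was thus not particular to first T. Other T-first reads of the copy, of 22, 23 and 26 nt, rose by 1.41 ± 0.41, 3.22 ± 0.70 and 2.05 ± 0.55, the 23-nt read from 0 and 3 input reads to 132 and 125 IP reads. With so few input reads its size is not settled: the change was 2.38 without input 1 and 9.49 without input 2, where the input left holds 0 reads. With DESeq2's size factors the 23-nt read and the 26-nt T-first read of the reference version no longer passed (adjusted p = 0.0934 and 0.174). Both, and the other 26-nt T-first read, reached 10 RPM only in the IPs. They passed the filter only where they were high.
ENSBTAG00000042770.1, G first, 27 nt: Gtcacaaagagtcggacacgactgagt
ENSBTAG00000042770.1, T first, 26 nt: Tcacaaagagtcggacacgactgagt
ENSBTAG00000042770.1, C first, 25 nt: Cacaaagagtcggacacgactgagt
ENSBTAG00000042770.1, other T-first read, 23 nt: Tcacaaagagtcggacacaactg

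The letters AGTCGGACA, common to these reads, were in 25.4% and 20.8% of U6 reads in the inputs and 52.7% and 46.2% in the IPs. They were not particular to sequences named U6: of all 63478 reads with them in IP 1, 59832 carried a piRNA cluster name and 2945 a U6 name, and in input 1 the counts were 4038, 3820 and 188. The letters stood in 0.378% of all listed sequences and their reverse complement TGTCCGACT in 0.191%. No listed sequence of the 4 families carried a piRNA cluster name itself. The letters ACAGAGA of the conserved U6 box were in 42.1% and 47.4% of U6 reads in the inputs and in 2.13% and 2.19% in the IPs. They were in 0.268% of all listed sequences (reverse complement TCTCTGT in 0.413%). Whether the IP reads listed as U6, U5 or U4 are fragments of these snRNAs was not tested.

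The other U6 copies were almost wholly made of shared reads. Of the 538 copies, 482 had no read of their own, 7 passed the filter on low counts, and 62 had no reads in the inputs and 42 none in the IPs. The 3 that passed and were lower, ENSBTAG00000042633.1, ENSBTAG00000042867.1 and ENSBTAG00000042693.1, went from 5.44 and 5.07, 5.44 and 5.07, and 5.29 and 4.90 RPM to between 0.0875 and 0.104 RPM. They fell by 5.604 ± 0.66 on the log2 scale (adjusted p = 0.000203). They divide the same reads and are not independent, and with microRNA reads as library size they were at -1.10 and did not pass. Of all 538 copies both IPs were below both inputs in 321, above in 13 and overlapping in 204, where 20.3% of all 38611 names lay below and 22.7% above. As most U6 copies divide the same shared reads, these are not 538 independent values.

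U5 reads were listed mainly under 2 copies. ENSBTAG00000043367.1 was at 60.7 and 56.3 RPM in the inputs and at 108 and 131 RPM in the IPs, and rose by 1.03 ± 0.15 on the log2 scale (adjusted p = 0.00059). ENSBTAG00000045168.1 was at 37.1 and 36.7 RPM and at 55.1 and 44.98 RPM, with 0.44 ± 0.18 (adjusted p = 0.0537). It passed with the replicate block (0.42, adjusted p = 0.042), without IP 2 (0.57, adjusted p = 0.0214) and with TMM factors (1.81). Together they held 80.5% and 75.1% of U5 reads in the inputs and 95.6% and 94.8% in the IPs. ENSBTAG00000043367.1 was T-first in 99.1% of input and 94.7% of IP reads and had a median of 24 nt in both. ENSBTAG00000045168.1 was T-first in 62.1% and 74.5%. The rise of ENSBTAG00000043367.1 was lost without either input, and with each distinct sequence counted once it was at -0.06.

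Most reads of ENSBTAG00000043367.1 began at 1 of 2 T that lie 2 nt apart. Its 26-nt read, shown above, was at 10.2 and 6.65 RPM in the inputs and at 17.96 and 21.3 RPM in the IPs (1.25 ± 0.43, adjusted p = 0.0143). The read that begins 2 nt later and ends at the same base was at 6.49 and 6.65 RPM and at 6.55 and 6.87 RPM, nearly the same in all 4 libraries and under the 10 RPM needed for the test. The read with the later start and 2 nt more at the 3′ end was at 3.71 and 3.69 RPM and at 10.95 and 11.9 RPM (1.62 ± 0.52, adjusted p = 0.00866). It reached 10 RPM only in the IPs, so it passed the filter only where it was high. On the overlap chain 41.5% of input and 46.8% of IP reads had the first start, and 56.4% and 44.6% the later one. The first bases of the 22-nt read shown above match the 3′ end of the later-start 26-nt read apart from 1 base. It was therefore not placed on this chain, and whether both come from the same stretch of the copy was not tested. The 22-nt read was at 6.49 and 5.17 RPM and at 12.7 and 19.4 RPM (1.47 ± 0.49, adjusted p = 0.0111). It too reached 10 RPM only in the IPs. These 3 sequences, each with at most 11 input reads per library, kept a positive sign but lost the call with TMM factors and with DESeq2, and the first of them also without input 2 (adjusted p = 0.0885), IP 1 (0.13) or IP 2 (0.241). The letters GGCGGATTC that the first 2 share were in 31.9% and 29.0% of U5 reads in the inputs and in 38.3% and 41.5% in the IPs. They stood in 8.875% of the sequences named U5 and in 0.0385% of all listed sequences (reverse complement GAATCCGCC in 0.096%). They were not particular to U5: of all 2840 reads with them in IP 1, 2067 carried a piRNA cluster name and 773 a U5 name. In input 1 the counts were 221, 178 and 43.
ENSBTAG00000043367.1, later start, 24 nt: Tacctgtggcggattcattttgat
ENSBTAG00000043367.1, later start, 26 nt: Tacctgtggcggattcattttgatat
ENSBTAG00000045168.1, most abundant read on its chain, 26 nt: Ttccaggcaagagtactggagtggga

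The other U5 copies were low or fell. ENSBTAG00000042190.1 was at 10.4 and 15.0 RPM in the inputs and at 1.03 and 1.08 RPM in the IPs, a change of -3.53 ± 0.39 (adjusted p = 0.000151) that did not pass with DESeq2's size factors (adjusted p = 0.152) and turned to 1.20 with microRNA reads as library size. ENSBTAG00000042594.1 and ENSBTAG00000042506.1 changed by -1.58 ± 0.56 and -1.65 ± 0.58 (adjusted p = 0.0332 and 0.0334), and both turned positive with DESeq2's size factors (0.59 and 0.48) and microRNA reads (3.10 and 3.02). Both lost the call without either input. ENSBTAG00000043356.1, the sixth U5 copy tested, did not pass (adjusted p = 0.231). The letters CTTTTAC of the conserved U5 loop were in none and 1.14% of U5 reads in the inputs and in 0.396% and 0.369% in the IPs, and in 0.0654% of all listed sequences (reverse complement GTAAAAG in 0.0884%).

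In U4 a single 18-nt sequence decided the IP reads. Tgcagtggaagtatggaa, listed under ENSBTAG00000044452.2, was at 14.8 and 12.6 RPM in the inputs (16 and 17 reads) and at 27.02 and 31.1 RPM in the IPs (301 and 344 reads). It rose by 1.09 ± 0.37 on the log2 scale (adjusted p = 0.0127), a call lost with TMM factors (0.446), with DESeq2's size factors (0.636) and without input 2 (0.051), IP 1 (0.135) or IP 2 (0.231). It made up 22.5% and 13.0% of U4 reads in the inputs and 90.1% and 89.8% in the IPs. Its copy held 6 sequences in all. Without it, the U4 family changed by -4.39 on the log2 scale, the T-first difference by 2.78 and the long-read difference by -2.91, against -1.35, 5.74 and -5.94 with it.

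The other 2 U4 copies tested fell. ENSBTAG00000046842.1 was at 27.8 and 54.3 RPM in the inputs and at 0.64 and 1.04 RPM in the IPs, and ENSBTAG00000048167.1 at 15.7 and 26.3 RPM and at 0.82 and 0.77 RPM. They fell by 5.66 ± 0.43 and 4.78 ± 0.40 on the log2 scale, and with microRNA reads as library size by 0.94 and 0.05, the latter not called (adjusted p = 0.925). In the inputs 59.4% and 56.2% of their reads were of 28 to 36 nt. ENSBTAG00000046393.1 and ENSBTAG00000043507.1, next in reads, had none of their own and were at most 2.29 RPM in any library. Of the 11 U4 copies 4 had no reads in the inputs, among them ENSBTAG00000043841.1 with 4 and 3 reads and ENSBTAG00000045043.1 with 1 and 4 reads in the IPs. ENSBTAG00000044452.2 was at 15.0 and 13.3 RPM and at 27.4 and 31.4 RPM (1.07 ± 0.21, adjusted p = 0.0025, lost without either input). The ATTTTTG letters were in 15.5% and 6.87% of U4 reads in the inputs and in 0.299% and 0.261% in the IPs; they were in 0.135% of all listed sequences and their reverse complement CAAAAAT in 0.08%.

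Over all 4 families 17 of the 565 copies passed the filter on low counts, 3 of U4, 6 of U5, 7 of U6 and U12. Of these 6 rose and 9 fell with listed reads as library size, where 16.4% of the 5452 names tested rose and 58.5% fell. The filter keeps a copy that is high in only 1 group, so these counts describe the copies with most reads and not all copies. The count of copies that rose came to 1 without input 1 or input 2, 6 without IP 1 and 7 without IP 2, and that of copies that fell to 4 without each library in turn. With rows counted whole for each name 293 of 311 tested copies fell. This counts a shared read in full for each of its names, so the 293 are not independent. The share over all names under this setting was not computed. With only sequences of 1 name 6 rose and 4 fell.

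**Figure D4:**
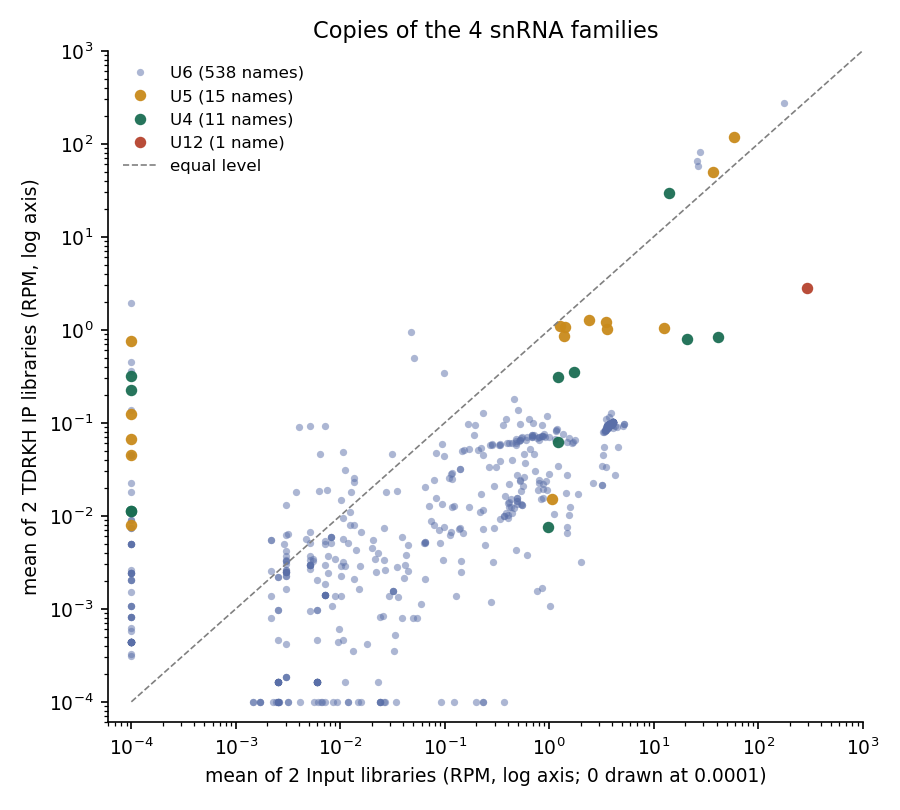
Mean level of each copy in the 2 Input libraries (x axis) and the 2 TDRKH IP libraries (y axis), both in RPM on log axes with 0 drawn at 0.0001, coloured by family, with a line of equal levels. Most U6 copies lie below the line, while 4 U6 copies, 2 U5 copies and 1 U4 copy above 10 RPM lie above it, and U12, at 291 RPM in the input and 2.84 RPM in the IP, lies far below it.

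Of the 2402 sequences, 60 were seen in all 4 libraries and 21 reached 10 RPM in 2 libraries and were tested. Of these 11 rose and 7 fell, where 41.9% of the 11786 sequences tested rose and 19.9% fell. The 11 that rose, 7 of U6, 3 of U5 and 1 of U4, all begin with T and are of 18 to 26 nt. The 7 that fell, 4 of U6 and 3 of U12, are of 27 to 36 nt, and 2 of them begin with T, both of U12. The limit of 10 RPM in 2 libraries keeps a sequence that is high in only 1 group. All 7 that fell were under 10 RPM in both IPs, and most that rose were under it in both inputs. First base and length here thus describe the sequences called and not all sequences of the families. Of all listed reads of the IPs 88.2% and 87.4% began with T, and the share over all sequences called was not computed. The number that rose was 3 with TMM factors, 0 with DESeq2's size factors and 8 with DESeq2 on totals. Of all sequences tested, 5.66%, 1.68% and 25.2% rose under these settings in that order. With an input or an IP left out, 14 sequences could be tested, since a sequence had to reach 10 RPM in 2 libraries, so those high in that group alone dropped out and counts without a library say nothing on them. Of the 14, 1 rose without IP 1 and 0 without IP 2.

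U1, which recognises the 5′ splice site first, was at 617 and 673 RPM in the inputs and 168 and 158 RPM in the IPs, and U2, which binds the branch point, at 554 and 593 RPM and 209 and 231 RPM. Their log2 changes were -1.99 ± 0.07 and -1.39 ± 0.07 with listed reads as library size, where the median over all families was -2.46. Values under the other scalings are not given for U1 and U2. Of 28 U1 copies tested 1 rose and 27 fell, and of 25 U2 copies 4 rose and 18 fell. Over all names tested 16.4% rose and 58.5% fell, and copies that divide the same reads are not independent. The T-first difference was 2.53 ± 0.17 in U1 and 0.72 ± 0.14 in U2, and the long-read difference -4.62 ± 0.16 and -2.39 ± 0.15, all past the threshold. The minor spliceosome RNA U4atac went from 15.8 and 8.86 RPM to 0.36 and 0.54 RPM (-4.69 ± 0.57), while U6atac was at 9.26 and 20.6 RPM and at 14.5 and 13.9 RPM and did not pass (adjusted p = 0.727). U11 held 19 reads in all, none of them in input 1, and U7 was below the limit of 10 reads.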

How the data were processed

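Small RNAs of 2 input and 2 TDRKH IP libraries were analysed. Per the labels' protocols, RNA was extracted with TRIZOL and sequenced from NEXTflex libraries on an Illumina NextSeq sequencer. The authors deposited raw read counts per distinct sequence with the names given by the unitas annotation tool, per the file headers; trimming, mapping, mismatches and build: not given in the sources used here. All listed sequences carry a name and measure 18 to 36 nt, so the totals count annotated reads.

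Names lost their mismatch notes, a row was divided equally among its names, and sums were rounded. Names, families and sequences (at least 10 RPM in 2 libraries) were compared with edgeR 4.0.16 (quasi-likelihood test, R 4.3.3, filterByExpr, listed reads as library size, no further factor), Benjamini-Hochberg adjusted over all features, threshold 0.05; the SE was approximated from the change and F. First T (or 28 to 36 nt) by IP was an interaction term with each library as a term. Alternatives used TMM, DESeq2 1.42.0, other library sizes, filters and divisions of rows, and each library left out. Chains joined reads by exact overlaps of at least 14 nt with at least 3 reads. Python 3.11.15 and matplotlib 3.10.9 served the rest. Steps were tested on simulated data. Members and lists were chosen with earlier results of these data known. Copies named are the 5 with most reads per family and up to 5 with the largest called change each way; sequences are the 3 highest per family and group and up to 3 each way, and 4 further tested sequences, the starts and the versions were chosen after values were seen. Read counts include PCR copies, and the precision given reflects the spread between these libraries, which may be technical. No coordinates of the copies were used here. Some single shared reads of U6 are not reported here.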

Additional observations from a re-analysis of the deposited data

How the results depend on the processing

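U12 kept its direction and call as a family under all alternatives run. With TMM factors U4 was at -0.19 and U6 at 0.64, with DESeq2's size factors 0.86 and 1.68, with microRNA reads as library size 3.41 and 4.24, and with reads of 18 to 32 nt U6 was at 0.17. Without the filter, where more families were tested, the values of U4, U5 and U6 were -1.35, 0.53 and -0.52 and none passed, and with each distinct sequence once U5 was at 0.25 and did not pass. Copies that rose numbered 11 of 17 tested with microRNA reads, 1 of 284 without the filter and 2 of 10 with each distinct sequence once. Copies that fell numbered 2, 99 and 4 under the same settings. With microRNA reads 60.5% of all names tested rose and 9.28% fell. Copies that fell numbered 293 of 311 with rows counted whole, 5 of 14 with reads of 18 to 32 nt and 4 of 12 with rows of a single name. Shares over all names under the settings other than microRNA reads were not computed. Sequences that rose numbered 3 with TMM factors and 0 with DESeq2's size factors, against 8 with DESeq2 on totals. Of all sequences tested, 5.66%, 1.68% and 25.2% rose under these settings in that order. The first T difference did not pass without the filter in U4 (5.74) and U12 (-2.58), nor with reads of 18 to 32 nt in U12 (-1.82). The length difference did not pass with each distinct sequence once in U5 (-1.34) and U12 (-2.14), nor for 23 to 36 against 18 to 22 nt (-0.79 and -2.52). The cause of these shifts was not tested.

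Among named copies and sequences, the sign turned with each distinct sequence once for ENSBTAG00000043367.1 (-0.061), ENSBTAG00000042770.1 (-0.15) and ENSBTAG00000044727.1 (-0.10). It turned with DESeq2's size factors for ENSBTAG00000042594.1 (0.59) and ENSBTAG00000042506.1 (0.48), and with microRNA reads for both (3.10 and 3.02), for ENSBTAG00000042190.1 (1.20), the 27-nt U12 read (0.39) and the other 27-nt version of ENSBTAG00000042770.1 (1.92). The C-first read of that copy was at -0.17 with TMM factors and -0.15 with those of DESeq2. Among the remaining results of these named items, without leave-outs, 253 kept direction and side of the threshold, 37 lost the call and 8 gained it.

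With each library left out in turn, the family change ranged from -1.58 to -1.03 in U4, 0.47 to 0.59 in U5, -0.59 to -0.43 in U6 and -6.93 to -6.44 in U12. Copies that rose ranged from 1 to 7 and those that fell stayed at 4, while sequences ranged from 0 to 13 and from 0 to 7. Only 14 sequences, against 21, reached the 10 RPM in 2 libraries when a library was left out, so the 0 of the falling sequences was set by that filter, as those 7 were not tested without an input. The first T difference ranged from 5.34 to 6.20 in U4, 0.87 to 1.23 in U5, 2.64 to 2.75 in U6 and -3.16 to -2.19 in U12. The length difference ranged from -6.22 to -5.45 in U4, -2.46 to -1.47 in U5, -6.00 to -5.85 in U6 and -3.24 to -2.35 in U12. A group left with 1 library was assumed to vary like the other. Shares over all names and sequences were not computed with a library left out.

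With the replicate block the family changes were -1.34 in U4, 0.54 in U5, -0.51 in U6 and -6.67 in U12. There 7 copies and 12 sequences were higher and 9 and 7 lower. Shares over all names and sequences under this setting were not computed. The block added the calls of ENSBTAG00000045168.1 and of the reference version of ENSBTAG00000042770.1 and ended none of those named. Deviations of libraries with the same number correlated at -0.001 over names, 0.002 over families and 0.070 over sequences, so the numbers were not taken to pair the libraries. The interaction fits already hold each library as a term, so no block was added. The fit of single sequences without a filter was not run. The input depth limits single sequences most, since several rest on fewer than 10 input reads.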
